A study of Rattus norvegicus with 6 samples.

Results

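The carbonic anhydrases were followed in primary rat chondrocytes with and without retinoic acid (RA). The family was represented by 8 genes of the 18923 in the count tables, picked by name, with earlier results of these data known. The tables give Car2 (ENSRNOG00000009629) under that symbol, and the other 7 under older symbols that RefSeq lists as synonyms of Car3, Car4, Car5b, Car8, Car9, Car12 and Car13. These are Ca3 (ENSRNOG00000010079), Ca4 (ENSRNOG00000002916), Ca5b (ENSRNOG00000029330), Ca8 (ENSRNOG00000005669), Ca9 (ENSRNOG00000017073), Ca12 (ENSRNOG00000017766) and Ca13 (ENSRNOG00000021323). The cells were wild-type chondrocytes from the cartilage of 24-hour-old female Sprague-Dawley rats, used at passage 1 or 2. In the CON group (3 samples) they were kept for 24 h in high-glucose medium with serum, and in the RA group (3 samples) in that medium with 1 µM all-trans RA, the active form of vitamin A, whose receptors are transcription factors. The labels name no solvent control for CON.

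Carbonic anhydrases are zinc enzymes that interconvert carbon dioxide and water with bicarbonate and a proton, and so set how quickly a cell can buffer, import or export acid. The isozymes differ in where they work: Car2, Ca3 and Ca13 in the cytosol, Ca5b in mitochondria, and Ca4, Ca9 and Ca12 at the cell surface with the active site facing outwards. Ca8 is a cytosolic relative that lacks an active site for this reaction. Cartilage has no blood vessels and its cells live largely on glycolysis, so acid handling is part of their normal physiology. In bone, Car2 is known for supplying the protons with which osteoclasts dissolve mineral.

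Poly(A) RNA was read as whole-number counts per gene, with 29370025 to 38007486 counts per sample. Each gene also has an FPKM value, its count scaled by gene length and by the total of the sample, and levels of different genes are compared here only in FPKM. Differences between groups are log2 fold changes of RA against CON from edgeR's quasi-likelihood test on the counts, run on the 13438 genes that passed a filter on low counts. A gene was called a DEG when its Benjamini-Hochberg adjusted p was below 0.05 and its log2 fold change lay beyond 0.58 in either direction. Libraries of the same group were similar except CON sample 1. The chi-square per degree of freedom between its counts and those of CON samples 2 and 3 was 39.4 and 63.5, against 8.13 between the latter and 6.40 to 8.09 among the RA samples, so the tested members are also given without it. The treatment itself was visible in known retinoid genes, of which 7 of 16 tested were DEGs and higher in RA. The count was 4 without RA sample 3, where Cyp26c1, Rarb and Tgm2 were lost, and 4 to 7 over the fits that each left out 1 sample. Cyp26b1, an RA-degrading enzyme, went from 1.51 ± 0.187 to 9.52 ± 0.916 FPKM (SD, n = 3 each). Rdh10 (-0.49, adjusted p = 0.0362, edgeR) and Rbp4 (-0.26, adjusted p = 0.0319, edgeR), of the same list, were lower in RA, with folds too small for a DEG.

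Of the carbonic anhydrases, Car2 rose 2.32-fold, Ca12 fell to 0.318 of its CON level and Ca3 to 0.482, while Ca5b, Ca8, Ca9 and Ca13 were not DEGs and Ca4 was too low to test. Of the 7 members tested, 1 was therefore a DEG and higher and 2 were DEGs and lower. Among all genes tested, 4.96% were DEGs, 2.67% higher in RA and 2.29% lower. By the adjusted p alone, 4 of the 7 members passed, beside 9.82% of all genes tested. An unadjusted p below 0.05, which some later counts use, was reached by 4 of the 7 and by 24.0% of all genes tested. The median log2 fold change of the 7 was -0.27, beside -0.0057 over all genes tested. Without CON sample 1 the median of the 7 was -0.14. In bulk RNA, fewer cells of a type and less RNA per cell cannot be told apart, which holds for each value that follows.

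**Figure D1:**
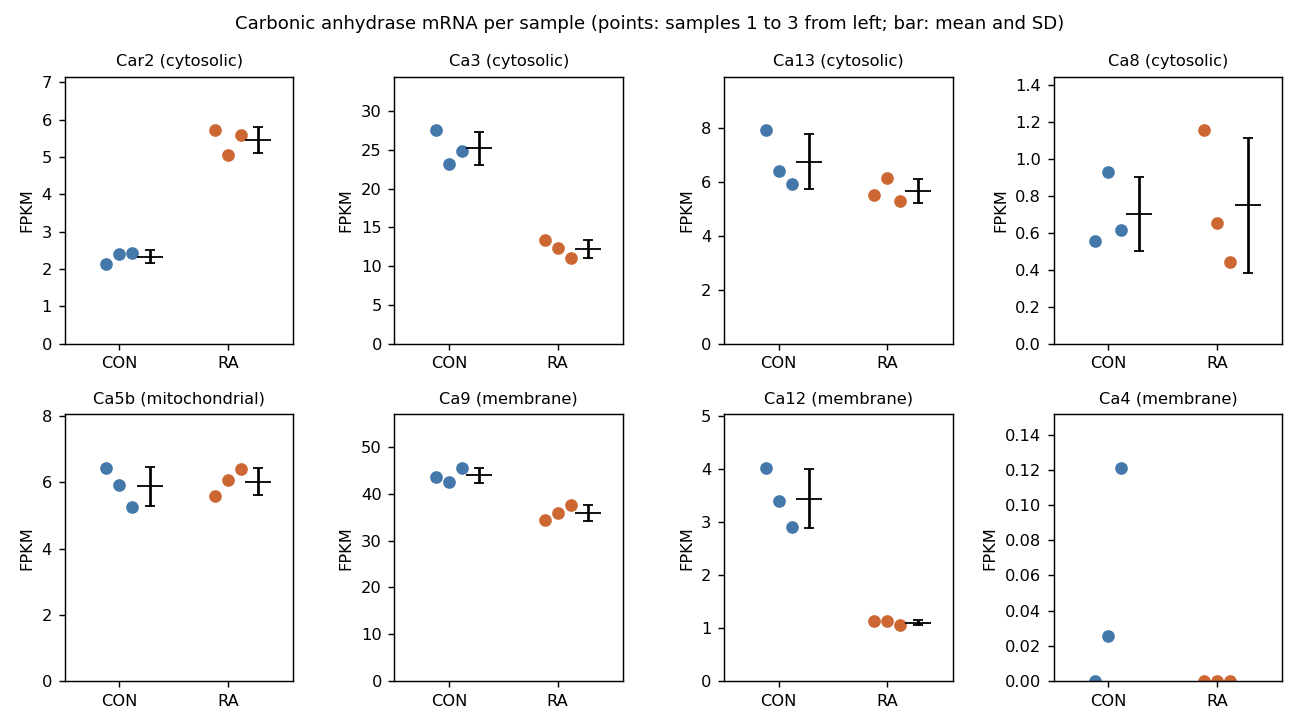
FPKM of the 8 carbonic anhydrase genes (vertical axes, linear and starting at 0, each with its own scale) in CON and RA samples. Points are single samples and bars the mean and SD of 3 samples, left out for Ca4, which was listed at 0 in 4 of the 6 samples. Car2 lies between 2.12 and 2.44 in CON and between 5.04 and 5.71 in RA, and Ca12 between 2.90 and 4.02 in CON and between 1.05 and 1.13 in RA.

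Car2, the widely expressed and very active cytosolic enzyme, was the member that rose. It measured 2.12, 2.40 and 2.44 FPKM in CON samples 1, 2 and 3 and 5.71, 5.04 and 5.57 FPKM in RA samples 1, 2 and 3. The lowest RA sample stood well above the highest CON sample, and the spread within each group was small beside the gap. The log2 fold change was 1.21 (standard error 0.128, adjusted p = 7.23e-04, edgeR). Without CON sample 1 it was 1.15 (adjusted p = 1.32e-04, edgeR). Car2 remained a DEG in all 6 fits that each left out 1 sample, at 1.15 to 1.26. Its counts, 107 to 283 per sample, carry a counting error of their own: the exact 95% Poisson interval of the lowest was 87.7 to 129. Of all genes tested, 97.4% had an absolute log2 fold change no larger than that of Car2.

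Ca3, a cytosolic isozyme with weak hydratase activity that is best known from skeletal muscle and fat, changed in the opposite direction. It measured 27.5, 23.2 and 24.8 FPKM in the CON samples and 13.4, 12.3 and 11.1 FPKM in the RA samples. Every RA sample was below every CON sample. The log2 fold change was -1.05 (standard error 0.0958, adjusted p = 3.15e-04, edgeR). Without CON sample 1, where Ca3 was highest, it was -0.99 (adjusted p = 6.18e-06, edgeR), and with each of the 6 samples left out it stayed a DEG, at -1.12 to -0.99.

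In the RefSeq annotation of the GRCr8 assembly, Car2, Car3, Car1 and Car13 follow one another on chromosome 2, with 0 other annotated genes between them. These neighbours did not move together. Car2 rose and Ca3 fell, Car1, the red-cell isozyme, had 1 read in all 6 samples, and Ca13 was not a DEG. Ca13, a cytosolic isozyme found in many tissues, measured 7.90, 6.40 and 5.93 FPKM in the CON samples and 5.52, 6.13 and 5.28 FPKM in the RA samples. RA sample 2 lay above CON sample 3, so the groups overlapped. On the log2 scale it differed by -0.27 (edgeR: standard error 0.129, adjusted p = 0.25) and by -0.14 (adjusted p = 0.428, edgeR) without CON sample 1, the highest of the CON samples.

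Ca8, the relative without catalytic activity, is known mainly from Purkinje neurons of the cerebellum. Here it was weakly expressed, at 0.558, 0.931 and 0.613 FPKM in CON and 1.15, 0.653 and 0.443 FPKM in RA. The highest and the lowest of all 6 values were both RA samples. With 20 to 50 counts per sample, the log2 fold change of 0.086 had a standard error of 0.385 (adjusted p = 0.915, edgeR). It was -0.36 without RA sample 1 and -0.05 without CON sample 1, so no direction was detectable over these samples.

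Ca5b, the mitochondrial isozyme, which supplies bicarbonate for carboxylation reactions, differed least between the groups. It measured 6.44, 5.92 and 5.27 FPKM in CON and 5.58, 6.08 and 6.40 FPKM in RA. The groups overlapped along nearly their whole range. The log2 fold change was 0.025 (standard error 0.102, adjusted p = 0.909, edgeR), and only 9.27% of the genes tested had one as small or smaller in size. Over the 6 fits with 1 sample left out it lay between -0.041 and 0.092, the latter without CON sample 1.

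Among the surface isozymes, Ca9 was the most abundant carbonic anhydrase of these cells in either group. Ca9 is a transmembrane enzyme and a classic target of the hypoxia-inducible factor HIF-1. It measured 43.6, 42.6 and 45.6 FPKM in CON and 34.3, 35.9 and 37.5 FPKM in RA. The groups did not overlap, yet the difference was modest, a log2 fold change of -0.30 (standard error 0.0667). The adjusted p was 0.0237 by edgeR, below the threshold, but the fold was too small for a DEG. The adjusted p was 0.00379 without CON sample 1 and between 0.0571 and 0.114 with any other single sample left out. Of all genes tested, 31.9% had groups that did not overlap, and 4 of the 7 members did.

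Ca12, also a transmembrane isozyme, had the largest log2 fold change of the 7 members tested. It measured 4.02, 3.40 and 2.90 FPKM in CON and 1.12, 1.13 and 1.05 FPKM in RA. Even the lowest CON sample was more than the sum of any pair of RA samples, and the RA samples were nearly equal. The log2 fold change was -1.65 (standard error 0.154, adjusted p = 3.68e-04, edgeR). Without CON sample 1, the highest, it was -1.53 (adjusted p = 2.47e-05, edgeR), and Ca12 stayed a DEG in all 6 fits with 1 sample left out, at -1.75 to -1.53. It ranked at the 98.8th percentile of all genes tested by the size of its change. For Car2, Ca3, Ca9 and Ca12 alike, an exact two-sided permutation test of log2 CPM (each gene's share of the reads) over the 6 samples gave p = 0.1, the smallest that 3 against 3 samples allow.

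RefSeq promoter sequences, 250 bases before to 50 after the gene's start in GRCr8, were matched for 4 members (Ca4, Ca5b, Ca9 and Ca12). Those of Ca9 and Ca12 are shown because these are the surface isozymes among the 8 members that passed the filter on low counts, both lower in every RA sample than in any CON sample. Capitals mark ACGTG on either strand (read as CACGT on the reverse), the core of the element that hypoxia-inducible factors bind. Ca9 is at chr5:62558774-62559073 on the plus strand and Ca12 at chr8:76169565-76169864 on the plus strand.
Ca9: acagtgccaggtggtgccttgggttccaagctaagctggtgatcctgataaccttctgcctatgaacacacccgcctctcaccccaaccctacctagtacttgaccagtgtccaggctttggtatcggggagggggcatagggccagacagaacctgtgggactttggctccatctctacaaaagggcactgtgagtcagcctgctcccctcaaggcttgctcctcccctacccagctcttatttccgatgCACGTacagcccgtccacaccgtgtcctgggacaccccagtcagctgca
Ca12: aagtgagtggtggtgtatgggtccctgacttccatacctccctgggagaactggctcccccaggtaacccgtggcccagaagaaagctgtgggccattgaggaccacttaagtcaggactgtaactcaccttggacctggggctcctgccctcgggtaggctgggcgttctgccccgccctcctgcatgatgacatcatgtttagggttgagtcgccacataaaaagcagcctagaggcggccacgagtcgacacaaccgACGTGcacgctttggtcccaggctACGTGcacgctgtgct
The Ca9 window held 1 match, at bases 2 to 6 after the start, and the Ca12 window 2, at bases 11 to 15 and 35 to 39. Of the 33469 promoters of this length, 19.3% hold at least 1. The nuclear receptor half-sites AGGTCA and AGTTCA, found in 16.2% and 14.5% of promoters, had 0 matches in either window, and so did a direct repeat of these half-sites, or of GGGTCA or GGTTCA, spaced by 1, 2 or 5 bases, which 0.777% of promoters hold. The Ca5b window held 1 AGTTCA, and the Ca4 window held 2 ACGTG. These matches describe the letters of the windows alone.

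Ca4, a surface isozyme held by a lipid anchor and known from capillary endothelium, was hardly detected. It had 0, 1 and 6 counts in CON and 0 counts in each RA sample. A count of 0 allows up to 3 (a one-sided 95% limit), or 0.0606 to 0.0785 FPKM for this gene, and only CON sample 3 exceeded that limit. Its counts were too low for the test, so no fold is given. Of 7 endothelial marker genes matched, 2 were tested and 0 were DEGs by edgeR, DESeq2 or limma (0 at an unadjusted p below 0.05 in edgeR), their summed FPKM was 5.61 to 8.07 in CON and 6.32 to 6.85 in RA, nearly all of it from Egfl7, and the defining marker Cdh5 was at or below 0.003 FPKM on average.

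**Figure D2:**
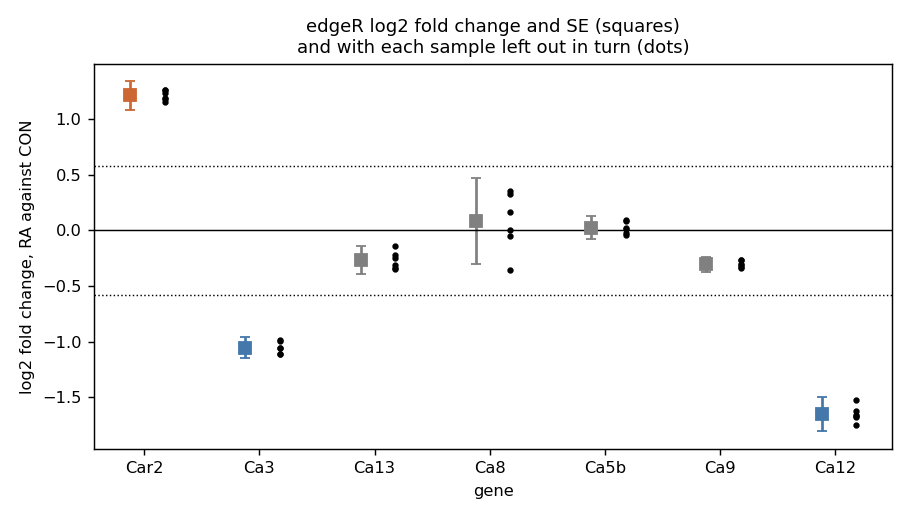
Log2 fold change of RA against CON (vertical axis) for the 7 members tested. Squares show edgeR's value with its standard error, coloured for DEGs, black dots show the value with each of the 6 samples left out, and dotted lines mark the fold threshold of 0.58 in both directions. The dots of Car2, Ca3 and Ca12 stay beyond the dotted lines, and those of Ca5b and Ca8 fall on both sides of 0.

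The cytosolic and surface isozymes were then set against each other. The 8 members together measured 88.2 ± 3.68 FPKM in the CON samples and 67.1 ± 0.302 in the RA samples (SD over 3 samples per group). Both classes contributed to this. The 4 cytosolic members summed to 35.0 ± 2.75 FPKM in CON and 24.1 ± 1.70 in RA, and the 3 surface members to 47.4 ± 1.31 and 37.0 ± 1.59. The share of the surface isozymes was 51.7 to 55.4% of the summed FPKM in the CON samples and 53.1 to 57.3% in the RA samples, ranges that overlap. The mean difference of 1.37 percentage points was 0.327 without CON sample 1, 0.286 without RA sample 3, 2.20 without CON sample 3 and 2.41 without RA sample 1. The cytosolic share averaged 39.6 ± 1.53% over the CON samples and 35.9 ± 2.70% over the RA samples (SD, 3 samples per group). Its ranges, 38.5 to 41.3% and 33.2 to 38.6%, just overlapped, and with the inactive Ca8 left out they did not (38.1 to 41.0% and 32.8 to 37.5%). The mitochondrial share, which is Ca5b alone, was 6.01 to 6.98% in CON and 8.36 to 9.50% in RA, without overlap, while the FPKM of Ca5b itself overlapped between the groups. These sums and shares over members were not tested. Shares of mRNA say nothing of enzyme activity, which differs widely between isozymes.

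Within each class the make-up was different. Ca3 held 72.0 ± 1.48% of the cytosolic FPKM in CON and 50.8 ± 1.24% in RA, while Car2 went from 6.70 ± 0.970% to 22.7 ± 2.05% (SD, n = 3 each). The ratio of Ca3 to Car2 was 12.9, 9.66 and 10.2 in CON samples 1, 2 and 3 and 2.34, 2.43 and 1.98 in RA samples 1, 2 and 3. At the surface, Ca12 held 7.27 ± 1.24% of the FPKM in CON and 2.99 ± 0.233% in RA, with nearly all the rest from Ca9.

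The order of the levels shifted accordingly. In CON it ran Ca9, Ca3, Ca13, Ca5b, Ca12, Car2, Ca8 and Ca4, and the only neighbours whose samples overlapped were Ca13 and Ca5b. In RA it ran Ca9, Ca3, Ca5b, Ca13, Car2, Ca12, Ca8 and Ca4. Here Ca5b overlapped with Ca13, Ca13 with Car2, and Ca12 with Ca8. Car2 thus moved from below Ca12 to the level of Ca13 and Ca5b.

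**Figure D3:**
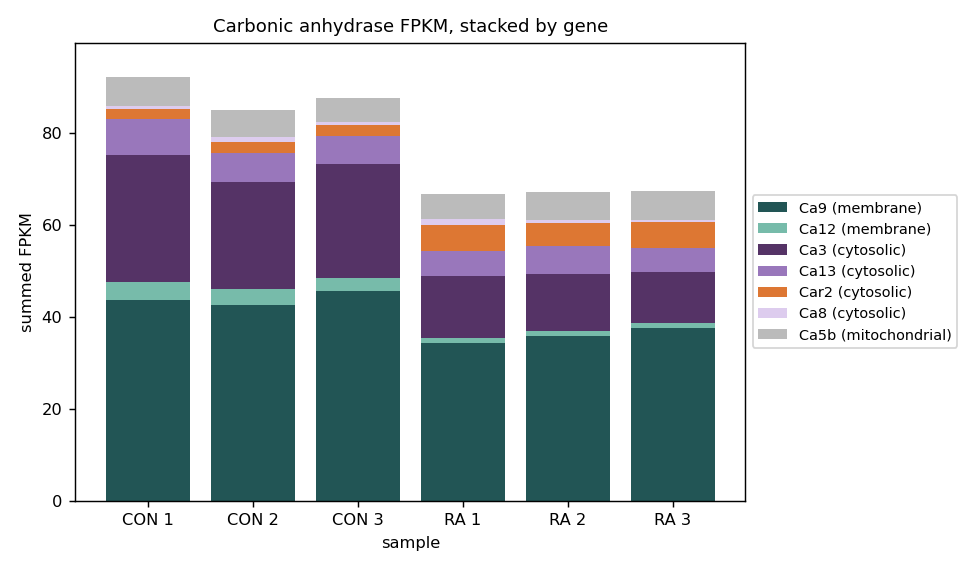
Summed FPKM of the carbonic anhydrase members (vertical axis) in each of the 6 samples, stacked by gene, with Ca4 too low to draw. The whole bar is 84.9 to 92.2 in CON and 66.8 to 67.4 in RA, the Ca3 segment is narrower in RA, and the Car2 segment is wider.

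Outside these 8, a list of 10 further genes with a carbonic anhydrase domain gave 9 matches, of which 4 passed the filter on low counts. Ptprg, a receptor tyrosine phosphatase whose outer part contains such a domain without enzyme activity, was the only DEG. It measured 12.8, 13.4 and 12.3 FPKM in CON and 19.9, 21.1 and 20.5 FPKM in RA. All RA samples were above all CON samples, by 0.66 on the log2 scale (edgeR: standard error 0.0614, adjusted p = 3.52e-04), and Ptprg stayed a DEG with each sample left out. The 3 others were not DEGs: the secreted relative Ca11 at 4.30 ± 0.434 and 4.17 ± 0.351 FPKM, the transmembrane isozyme Ca14 at 2.40 ± 0.339 and 2.89 ± 0.0510, and the secreted isozyme Ca6 at 0.756 ± 0.107 and 0.639 ± 0.0734 (CON and RA, SD, n = 3 each). Car1, Ca5a, Car7 and Car10 had 0 to 3 counts in any sample, and the receptor phosphatase Ptprz1 had 3 to 9.

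Carbonic anhydrases work with the transporters that carry bicarbonate and protons across membranes. Of 20 bicarbonate and anion transporter genes, 15 were tested, 1 was a DEG and higher and 2 were DEGs and lower, with a median log2 fold change of -0.06. Slc26a2, the sulfate transporter that feeds proteoglycan sulfation in cartilage, went from 40.9, 39.8 and 36.5 FPKM in CON to 16.5, 17.3 and 17.7 in RA. The groups were far apart, with a log2 fold change of -1.20 (edgeR: standard error 0.0666, adjusted p = 3.5e-05). Slc26a7, an anion exchanger, fell at a lower level, from 1.65 ± 0.307 to 0.813 ± 0.0200 FPKM (SD, n = 3 each; log2 fold change -1.03). Both were DEGs in all 6 fits with 1 sample left out. Slc4a7, a sodium-bicarbonate cotransporter that brings base into the cell, rose from 11.1 ± 0.539 to 16.8 ± 1.19 FPKM (SD, n = 3 each). Its log2 fold change of 0.59 was at the threshold, and it was 0.56 without CON sample 3 and 0.54 without RA sample 1, where it was no longer a DEG. Slc4a8, of the same list, measured 0.891 ± 0.131 and 0.394 ± 0.199 FPKM in CON and RA (SD, n = 3 each). At -1.19 on the log2 scale (edgeR: adjusted p = 0.0602) it was not a DEG, but it was one without CON sample 1 or RA sample 2.

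Of 16 genes for proton exchangers and lactate carriers, 12 were tested and 1 was a DEG, with a median of 0.010. That gene, Slc9a3r1, encodes a scaffold of the sodium-proton exchanger and not a transporter. Slc9a3r1 measured 0.62 on the log2 scale (edgeR: adjusted p = 0.014) and remained a DEG only without CON sample 3 (0.75). The fold dropped to 0.51 with CON sample 1 left out. Leaving out CON sample 2 (0.61) or any RA sample (0.60 to 0.63) kept the fold but not the adjusted p. Slc16a3, a lactate carrier, measured 33.6 ± 8.95 and 50.7 ± 0.827 FPKM in CON and RA (SD, n = 3 each), with an adjusted p of 0.0813 in edgeR, and was a second DEG without CON sample 3 and in DESeq2. Of 26 genes of the vacuolar proton pump and its chloride partner, 22 were tested and 0 were DEGs by edgeR, DESeq2 or limma, 1 having an unadjusted p below 0.05 in edgeR, with a median of 0.033. The most abundant, Atp6v0c, measured 297 ± 32.6 and 313.4 ± 13.3 FPKM in CON and RA (SD, n = 3 each). Among 12 matched genes for acid and carbon dioxide sensors and channels, 4 were tested and Aqp1 was the DEG. This water channel rose from 268.6, 284 and 290 FPKM in CON to 427, 437 and 446 in RA. The rise was 0.62 on the log2 scale (edgeR: standard error 0.0547, adjusted p = 2.63e-04), and Aqp1 stayed a DEG with each sample left out.

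**Figure D4:**
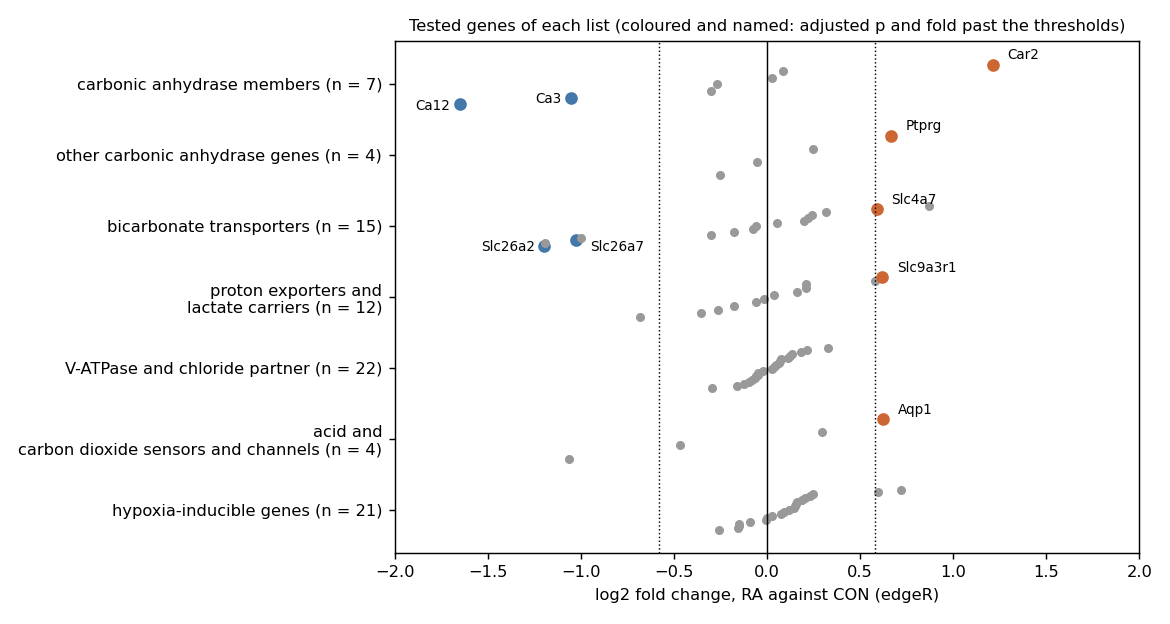
Log2 fold change of RA against CON (horizontal axis) for the tested genes of the carbonic anhydrase family and of 6 further lists, 1 point per gene, with the number tested in brackets. DEGs are coloured and named, dotted lines mark the fold threshold of 0.58 in both directions, and the vertical offset within a list only separates points. The 22 proton pump genes lie close to 0, whereas Car2 lies at 1.21, Ca3 at -1.05 and Ca12 at -1.65.

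Since Ca9 and Ca12 are known hypoxia-responsive genes, 22 other genes induced by hypoxia were examined. Of these, 21 were tested and 0 were DEGs by edgeR, DESeq2 or limma, and 9 had an unadjusted p below 0.05 in edgeR, a level that 24.0% of all genes tested reached. Without CON sample 1, 1 was a DEG and higher, Pfkfb4, a regulator of glycolysis. The median log2 fold change was 0.12, and Pgk1, a glycolytic enzyme at 0.20 on the log2 scale (edgeR: adjusted p = 0.0492), was the only one with an adjusted p below the threshold with all samples. Both genes were picked with their values in view. Ldha, the most abundant, measured 775 ± 18.4 and 868 ± 30.6 FPKM in CON and RA (SD, n = 3 each).

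Cell type markers were set beside the members that changed. Of 13 chondrocyte markers, 13 were tested, 11 were DEGs and lower in RA and 0 were higher, with a median log2 fold change of -0.86. Examples are Ucma (-1.77), Matn3 (-1.65) and Acan, the gene of aggrecan (-1.51). Of 12 genes of hypertrophic chondrocytes and mineralization, 4 were DEGs and higher and 1 was lower, with a median of 0.22. That median was 0.095 without CON sample 1. Mmp13 rose by 2.26, Col10a1 by 2.16, Spp1 by 1.88 and Ibsp by 1.47 on the log2 scale. Panx3, at -1.91, depended on 4 samples: the call was lost when CON sample 2 (-1.52) or any one RA sample (-2.19 to -1.72) was left out. The other genes of the list were not DEGs. Phospho1 (0.31), Sp7 (0.23), Runx2 (0.22) and Pth1r (0.084) were higher in RA, with an adjusted p of 0.158 to 0.677 in edgeR. Alpl, Mef2c and Ihh were lower. Alpl measured -0.42 (edgeR: adjusted p = 0.0219), Mef2c -0.26 (0.0561) and Ihh -1.63 (0.0669), and Ihh was a DEG, the second lower one, without CON sample 1. Ca3 and Ca12 thus fell, and Car2 rose, in samples in which most chondrocyte markers fell and the hypertrophic list moved in both directions. The part of these shifts in the members' changes was not tested.

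Car2 is abundant in osteoclasts and red cells. Of 12 osteoclast markers, 10 were matched and 5 tested. Their summed FPKM was 36.2 to 40.1 in CON and 35.5 to 38.5 in RA, mostly from Ctsk. Acp5, at 5.98 ± 1.29 and 6.77 ± 0.126 FPKM, and Nfatc1, at 6.46 ± 0.410 and 5.83 ± 0.112 FPKM (CON and RA, SD, n = 3 each), were measured at or above the level of Car2. Ctsk, Acp5 and Nfatc1 were not DEGs. The only DEG was Mmp9, at 0.134 ± 0.0670 and 0.976 ± 0.229 FPKM (SD, n = 3 each). Calcr had 0 counts in all samples, and Tnfrsf11a, Siglec15 and Atp6v0d2 averaged at most 0.087 FPKM in either group. Of 7 matched red-cell markers, 2 were tested and 0 were DEGs by edgeR, DESeq2 or limma (1 at an unadjusted p below 0.05 in edgeR), with a summed FPKM of 0.575 to 1.13 in CON and 1.05 to 1.69 in RA. Of 12 matched macrophage markers, 4 were tested and 0 were DEGs by those tools (2 at an unadjusted p below 0.05 in edgeR), with a summed FPKM of 14.6 to 15.7 in CON and 16.7 to 18.2 in RA, mostly from Cd14.

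Ca3 is abundant in skeletal muscle and fat. Of 10 matched muscle markers, 4 were tested, and their summed FPKM was 9.90 to 12.4 in CON and 9.62 to 11.5 in RA. Tnnt3, a troponin, was lower (log2 fold change -1.0) and Myod1, a muscle transcription factor, higher (1.93), but each call was lost when CON sample 2 (-0.98 and 1.76), or the first (-0.90 and 1.80) or the second (-0.89 and 1.89) of the RA samples was left out. Des, the gene of desmin and the most abundant of the list, measured 5.09 ± 0.616 and 6.72 ± 0.387 FPKM in CON and RA (SD, n = 3 each), higher in every RA sample but not a DEG (edgeR: adjusted p = 0.0766), and Mylpf, a myosin light chain, 0.697 ± 0.378 and 0.488 ± 0.0805. The 6 markers that were not tested averaged at most 0.223 FPKM in either group. Of 11 matched fat cell markers, 6 were tested, 2 were higher and 1 lower, with a summed FPKM of 21.5 to 24.1 in CON and 23.3 to 24.2 in RA. None of these calls held with every sample left out in turn: Pparg (1.35) was lost when CON sample 2 (1.32) or the second (1.22) or the third (1.32) of the RA samples was dropped. Lpl (-0.74) was lost when CON sample 2 (-0.74) or any RA sample (-0.80 to -0.64) was dropped. Fabp4 (0.81) was lost when any sample but CON sample 1 was dropped (0.71 to 0.90). Acsl1, tested but not a DEG, had an adjusted p below 0.05 in edgeR with too small a fold. Adipoq and Plin1, which define fat cells, averaged at most 0.063 FPKM. Among the low markers that were not tested, Cfd had 5, 5 and 4 counts in CON and Lep 2, 4 and 0, and both had 0 in each RA sample. Plin1 went the other way, with 2, 4 and 0 counts in CON and 3, 8 and 6 in RA. Of 11 fibroblast and perichondrium markers, Postn (-1.28) and Gli1 (-0.84) were DEGs and lower, with a list median of 0.034. Prrx1 (0.49) and Pdgfra (0.44) were higher with an adjusted p of 0.0014 and 0.00155 in edgeR, but their folds were too small for a DEG.

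Finally, the genes whose profile over the 6 samples was most like that of a changed member were listed, by Pearson's r of log2 CPM among 11342 genes with a mean of at least 1 FPKM. For Car2 they were Pla1a, a phospholipase (r = 0.999), AABR07069219.1 (0.998) and Klhdc8a (0.998), which were DEGs and higher in RA. For Ca12 they included Papss2 (r = 0.999), which makes the sulfate donor for proteoglycans and was a DEG at -0.94, and Tspan18 (r = 0.998), which was not a DEG, at -0.50. For Ca3 they included Zfpm2 (-0.46) and Cdon (-0.26), which were not DEGs, with r of 0.996. The 6 samples fall into 2 groups, and r above 0.99 was reached by 71, 53 and 26 genes for Car2, Ca12 and Ca3, so the ranking is a description of these samples.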

How the data were processed

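RNA from 3 CON and 3 RA samples was sequenced as poly(A) libraries. The files deposited by the authors hold raw whole-number counts and FPKM values. The deposited FPKM values were found to equal the count scaled by gene length and by the sample's total (the implied length was the same in all samples, within 0.01 bases, for 18450 of 18450 genes with a count). The submitters' processing notes name HISAT2, HTSeq 0.13.5 and Rnor 6.0. The annotation, the strand setting and the handling of shared reads are not given in the sources used here, so counts of overlapping genes are uncertain. No coordinates are given from the build of the files.

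Groups came from the sample titles. The study's methods call the 3 samples of a group independent. Whether they came from separate animals or cultures is not given in the sources used here, so p-values measure the spread between these samples. Counts were analysed with edgeR 4.0.16 in R 4.3.3 (filterByExpr with a minimum count of 10, TMM, glmQLFit, glmQLFTest, no covariates, all 6 samples), and standard errors were derived from the F statistic. The script was tested on simulated data. DESeq2 1.42.0 and limma 3.58.1 (log2 of FPKM plus 0.1 or 1), other scalings, filters and thresholds, a replicate block and each sample left out were alternatives. The 8 members and the lists (243 genes, of which 211 were matched by symbol, 12 through RefSeq synonyms and 20 not) were chosen with earlier results of these data known. Where a symbol had several identifiers, that with the highest mean count was used. Other genes named are the DEGs of each list, at most the 6 largest, the most abundant gene of a list without DEGs, and the 3 closest profiles, some of which are not reported here. Further markers at low levels were named after their values were seen. Intervals and limits on counts cover counting error only. Sequences are from RefSeq (GRCr8). Protein sequences were not used here.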

Additional observations from a re-analysis of the deposited data

How the results depend on the processing

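Car2, Ca3 and Ca12 kept their direction and remained DEGs under all 16 alternatives run for each, and Ca13 kept its direction and was called under none. With 1 sample left out in turn, the log2 fold change ran from 1.15 to 1.26 for Car2, -1.12 to -0.99 for Ca3, -1.75 to -1.53 for Ca12, -0.34 to -0.27 for Ca9, -0.35 to -0.14 for Ca13, -0.041 to 0.092 for Ca5b (below 0 without CON sample 3 or RA sample 3, at -0.041 and -0.023) and -0.36 to 0.36 for Ca8 (below 0 without CON sample 1 or RA sample 1, at -0.05 and -0.36). Under the other alternatives the ranges were 0.96 to 1.22 for Car2, -1.06 to -0.98 for Ca3 and -1.66 to -1.07 for Ca12, the smallest sizes coming from log2(FPKM + 1), whose pseudocount compresses low genes. Ca9, at -0.30, was called only when the fold threshold was dropped.

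The number of DEGs, 667 with all samples, ran from 480 to 755 with 1 sample left out. It was 1319 with no fold threshold, 1017 with an unadjusted p and the fold threshold, and 434 in limma on log2(FPKM + 1). Same-numbered CON and RA samples deviated together only weakly (r = 0.093, -0.012 and 0.012 across genes for numbers 1, 2 and 3). Whether they shared an animal, a culture or a batch is not given in the sources used here and cannot be told from these values. A fit with the replicate number as a block called 684 genes, with Car2 at 1.22 (1.215), Ca3 at -1.05, Ca12 at -1.64, Ca9 at -0.30, Ca13 at -0.26, Ca5b at 0.026 and Ca8 at 0.025, and changed no member's call. The share of the surface isozymes was 1.37 percentage points higher in RA, 1.55 with Ca8 left out, and 0.286 to 2.41 with 1 sample left out in turn, an alternative chosen after seeing the data. In limma on log2(FPKM + 1) the 7 retinoid genes called became 4, the 3 bicarbonate and anion transporters 1 (Slc26a2), the 3 fat cell markers 1 (Fabp4), the 2 muscle markers 1 and the 2 fibroblast markers 1. DESeq2 called 4 bicarbonate and anion transporters and 2 genes of the proton exchanger and lactate carrier list. At this depth Ca4 had too few counts to pass the filter.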
